A study of Mus musculus with 42 samples.

Results

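Keratin genes were read across the mouse stomach and gut as every gene symbol made of Krt, a number and at most 1 further letter. Of the 22180 genes with a probe set of their own on the Affymetrix array, 53 met this rule, 27 on chromosome 11 and 26 on chromosome 15. Krt5, a keratin of basal squamous cells, shared its only probe set with Krt6a and was left out as a member; that probe set had group means between 3.61 and 4.92 on the log2 scale, near the array medians of 3.82 to 4.25. Krt74 is annotated as a transcribed pseudogene in RefSeq. Krt18 was covered by 2 probe sets, and the one with the higher mean was used.

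The 42 arrays held RNA of epithelium from untreated adult mice, at least 7 to 8 weeks old and not selected for sex, and the labels name no strain. 25 arrays came from Lgr5-EGFP-IRES-CreERT2 mice (IRES below), in which green fluorescence follows transcription of Lgr5, a stem cell marker and Wnt target. From their pylorus, the outlet of the stomach, came 4 arrays of brightly fluorescent (Lgr5Hi) cells, 4 of dim (Lgr5Lo) cells and 2 of whole glands. Their small intestine gave 2 Lgr5Hi, 2 Lgr5Lo, 2 crypt arrays and 1 whole-tissue array, and their colon 3 Lgr5Hi, 3 Lgr5Lo and 2 whole-tissue arrays. The pylorus of Lgr5-EGFP-DTR mice (DTR), a second reporter that also carries the diphtheria toxin receptor, gave 3 Lgr5Hi arrays, 3 Lgr5Lo arrays and 3 arrays of cells without fluorescence (Lgr5Neg). Pylorus of wildtype mice (WT) was stained with an antibody against the water channel Aqp5 and gave 4 Aqp5Pos and 4 Aqp5Neg arrays. Both reporters mark cells by Lgr5 alone, so a gate can hold several cell types, and in such pools fewer cells of a type and less RNA per cell cannot be told apart. The labels call the arrays biological replicates and do not say whether animals were pooled, so p-values measure the spread between these samples.

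Keratins are the intermediate filament proteins of epithelia. A filament needs a type I (acidic) and a type II (basic) keratin in equal parts. Type I genes mostly sit in one gene cluster and type II genes in another, and Krt18 is the exception, a type I gene beside Krt8 in the type II cluster. Simple, single-layered epithelia such as those of stomach and gut use the type II keratins Krt7 and Krt8 with the type I keratins Krt18, Krt19 and Krt20. Krt20 is known from the differentiated cells at the gastric surface and on the intestinal villus. Most of the other members are keratins of squamous epithelia, hair follicles or the cornea.

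The 250 bases before the annotated start are shown for 5 members, which are Krt23 and the simple epithelial keratins that had a promoter entry. They are RefSeq sequences of build GRCm38.p6, each read 5′ to 3′ on the gene's own strand, and the capitals mark matches, on either strand, to 7 short motifs. These are the TATA box TATAAA, the core TTTATG that Cdx homeodomain proteins bind, the core CTTTGA of the TCF/LEF factors of Wnt signalling, the Sox core ACAATG, the Snail-type E-box CACCTG, the box GGGCGG of Sp and KLF factors, and the AP-1 site TGANTCA; a lower-case stretch holds none of them. Krt20 lies at chr11:99438154-99438403 on the minus strand, Krt23 at chr11:99493121-99493370 (minus), Krt7 at chr15:101412153-101412402 (plus), Krt8 at chr15:102004343-102004592 (minus) and Krt18 at chr15:102027966-102028215 (plus).
Krt20: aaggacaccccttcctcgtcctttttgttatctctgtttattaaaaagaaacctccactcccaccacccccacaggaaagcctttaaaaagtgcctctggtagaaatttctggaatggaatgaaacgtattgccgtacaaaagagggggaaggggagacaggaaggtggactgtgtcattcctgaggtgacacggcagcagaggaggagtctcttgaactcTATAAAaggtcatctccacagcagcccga
Krt23: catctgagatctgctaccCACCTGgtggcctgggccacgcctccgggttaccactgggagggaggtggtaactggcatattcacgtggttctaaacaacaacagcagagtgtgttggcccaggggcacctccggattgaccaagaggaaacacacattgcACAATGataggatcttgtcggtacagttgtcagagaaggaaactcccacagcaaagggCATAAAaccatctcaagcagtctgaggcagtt
Krt7: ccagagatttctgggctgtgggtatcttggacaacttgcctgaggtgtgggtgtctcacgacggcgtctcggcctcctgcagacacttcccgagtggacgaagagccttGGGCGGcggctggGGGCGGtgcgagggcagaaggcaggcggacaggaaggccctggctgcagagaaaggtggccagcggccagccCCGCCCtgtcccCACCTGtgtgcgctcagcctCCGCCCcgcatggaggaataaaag
Krt8: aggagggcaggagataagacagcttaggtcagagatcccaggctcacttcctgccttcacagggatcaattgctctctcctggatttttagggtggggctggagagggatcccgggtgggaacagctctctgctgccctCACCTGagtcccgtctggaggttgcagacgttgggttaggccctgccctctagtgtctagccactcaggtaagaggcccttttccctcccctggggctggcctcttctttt
Krt18: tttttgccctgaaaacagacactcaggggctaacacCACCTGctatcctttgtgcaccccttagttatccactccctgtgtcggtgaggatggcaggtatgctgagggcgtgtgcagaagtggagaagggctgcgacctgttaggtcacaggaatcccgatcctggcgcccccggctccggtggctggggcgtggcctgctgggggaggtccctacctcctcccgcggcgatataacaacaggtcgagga

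Krt20 holds a TATA box 29 to 24 bases before its start. Krt23 holds a Cdx-type core on the antisense strand 32 to 27 bases before its start, a Sox core at 90 to 85 and an E-box at 232 to 227. Krt7 holds 4 Sp/KLF boxes and 1 E-box, and Krt8 and Krt18 each hold 1 E-box. Among all 32851 promoters of the table, the TATA box was found in 12.4%, the Cdx core in 10.8%, the TCF/LEF core in 13.8%, the Sox core in 10.7%, the E-box in 17.2%, the Sp/KLF box in 32.7% and AP-1 in 6.75%. Of the 37 promoter entries of keratin genes, 17 held the TATA box, 16 the Cdx core, 14 the E-box, 9 the TCF/LEF core, 5 the Sox core, 2 the Sp/KLF box and 2 AP-1. These are matches of letters, not measured binding. The table had entries for 36 keratin genes, counted by symbol, and none for Krt19.

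Some arrays stand apart from their labels. The array labelled whole colon replicate 1 had a gastric profile (the stomach genes Gkn1 at 13.12 and Muc5ac at 12.50, the colon gene Car1 at 2.50). It enters none of the main tests below, but it is part of the alternative fits over all 42 arrays and over all 25 IRES arrays. The 2 arrays labelled small intestine crypt had the lowest Lgr5 of that tissue (4.81 and 5.04) and the highest level of Alpi, a villus enterocyte enzyme (11.95 and 11.97). 5 sorted IRES arrays of pylorus or colon held more than 9 log2 units of Defa24, a Paneth cell defensin of the small intestine: pylorus Lgr5Hi 4, Lgr5Lo 2 and Lgr5Lo 4, and colon Lgr5Hi 2 and Lgr5Lo 2. IRES pylorus Lgr5Hi 3 had Sox2, a gastric transcription factor, at 3.56 (6.70 to 7.35 on the other 3 arrays), Cdx2, an intestinal one, at 6.35 (4.00 to 4.79) and Car1 at 6.17 (3.70 to 3.91), with Gkn1 at 12.60. Where a call was lost without such arrays, the result without them is given. Car1 also lay at 6.54 on IRES pylorus Lgr5Lo 3 and at 5.26 on Lgr5Lo 4, against 3.88 and 2.80 on Lgr5Lo 1 and 2. Colon Lgr5Hi 3 had Car1 at 4.71, against 10.04 and 10.30 on colon Lgr5Hi 1 and 2. Lgr5 followed the gates of both reporters and Aqp5 those of the antibody sort. The mean over 16 squamous markers other than keratins lay between 3.80 and 4.55 on every pyloric array, and 2 to 5 of the 16 lay 1 or more above the array median in each pyloric group.

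A keratin was taken to lie above the array median when its mean in at least 1 of the 15 groups was 1 or more log2 units above the mean array median of that group. 15 of the 53 members did so, against 51.5% of all genes by the same rule. They were Krt7, Krt8, Krt18, Krt19, Krt20, Krt23, Krt10, Krt12, Krt15, Krt35, Krt42, Krt78, Krt79, Krt80 and Krt81. The other 38 members, or 71.7%, lay near or below the array median in every group. All 5 simple epithelial keratins were above. Of the keratins of skin and squamous linings, 1 of 2 basal members (Krt15), 1 of 3 members of internal stratified epithelia (Krt78) and 3 of 8 epidermal suprabasal members (Krt10, Krt79, Krt80) were above. None of the 4 stress and repair keratins (Krt6a, Krt6b, Krt16, Krt17) and none of the 9 keratins of the inner root sheath and companion layer of hair was above, and their group means did not exceed 3.71 and 4.47. Of the 16 hair shaft keratins, Krt35 and Krt81 were above. The rule cut through a continuum at its edge, with Krt35 at most 1.18 and Krt12 1.19 above the array median, and Krt83 and Krt40 at most 0.87 above it. With a margin of 0.5 the count was 25, and with a margin of 2 it was 10.

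Krt42, Krt81 and Krt10 lay above the array median in 14, 13 and 10 of the 15 groups and Krt35 in 2. Group means of Krt42 ran from 4.78 in DTR Lgr5Hi cells to 5.72 on the whole small intestine array, those of Krt81 from 4.64 in small intestinal Lgr5Hi cells to 5.66 on the same whole-tissue array, and those of Krt35 from 4.31 in DTR Lgr5Hi cells to 5.05 in the crypt-labelled arrays. Krt10, a keratin of the differentiating epidermis, ran from 4.77 in IRES pyloric Lgr5Hi cells to small intestinal Lgr5Lo cells, which lay at 6.38 and 5.62.

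**Figure D1:**
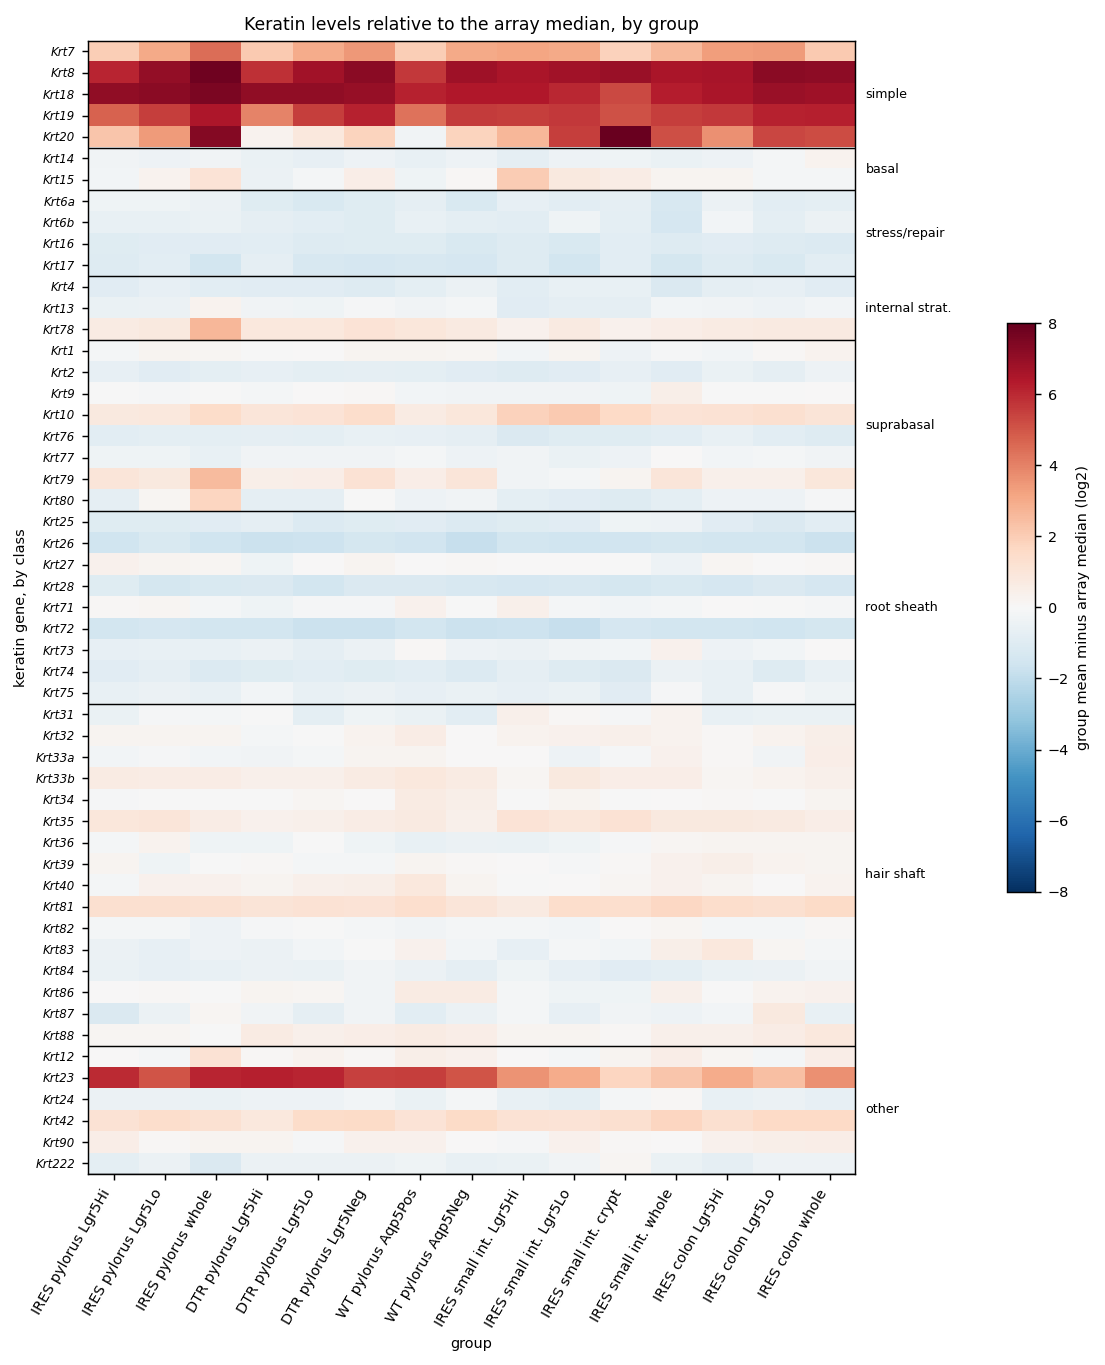
Mean level of the 53 keratins (rows, ordered by class) in the 15 groups (columns), as log2 units above (red) or below (blue) the mean array median of the group. The 5 simple epithelial keratins and Krt23 stand out in most columns; of the other rows, Krt42, Krt81 and Krt10 lie 1 or more above the array median in 14, 13 and 10 groups, and Krt78 and Krt79 reach 2.64 and 2.53 above it.

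Krt8 and Krt18, the obligate pair of simple epithelia, were high in every group. The group means of Krt8 ran from 9.77 in DTR Lgr5Hi cells to 11.69 in whole pylorus, and those of Krt18 from 9.17 in the crypt-labelled arrays to 11.48 in whole pylorus. Krt19, a type I keratin of glandular and ductal epithelia, ran from 7.89 in DTR Lgr5Hi cells to 10.42 in whole pylorus. Krt7 ran from 5.74 in the crypt-labelled arrays to 8.43 in whole pylorus. Levels of different genes are not compared here, since each comes from its own probes.

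The group means of Krt20 ranged most widely of the 53 members, from a group mean of 3.87 ± 0.49 (SD, n = 4) in WT Aqp5Pos cells to 11.77 ± 0.16 (n = 2) in the crypt-labelled arrays. Whole pylorus was next to the top with 11.11 and 11.42. The lowest sorted groups were WT Aqp5Pos, with 4.10, 3.23, 4.36 and 3.78, and DTR Lgr5Hi, with 4.50, 4.15 and 4.07, all near or below the array medians. Within the sorted IRES groups the arrays spread widely. Pyloric Lgr5Hi arrays lay at 5.69, 4.12, 8.40 and 6.59 and Lgr5Lo arrays at 6.22, 6.42, 8.71 and 8.19. Small intestinal Lgr5Hi arrays lay at 4.81 and 8.31 and Lgr5Lo arrays at 9.03 and 9.86. Colonic Lgr5Hi arrays lay at 8.69, 9.08 and 4.95, the last on the array with low Car1, and Lgr5Lo arrays at 9.16, 9.73 and 8.74. In each of the 3 organs the mean was lower in Lgr5Hi than in Lgr5Lo cells, but the replicate spread left standard errors of 0.91, 1.28 and 1.05 and none of the 3 differences passed the test (limma, adjusted p = 0.659, 0.962 and 1). Every equally numbered pair was lower in Lgr5Hi, and a fit with the replicate number as a block called none of the 3 either.

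**Figure D2:**
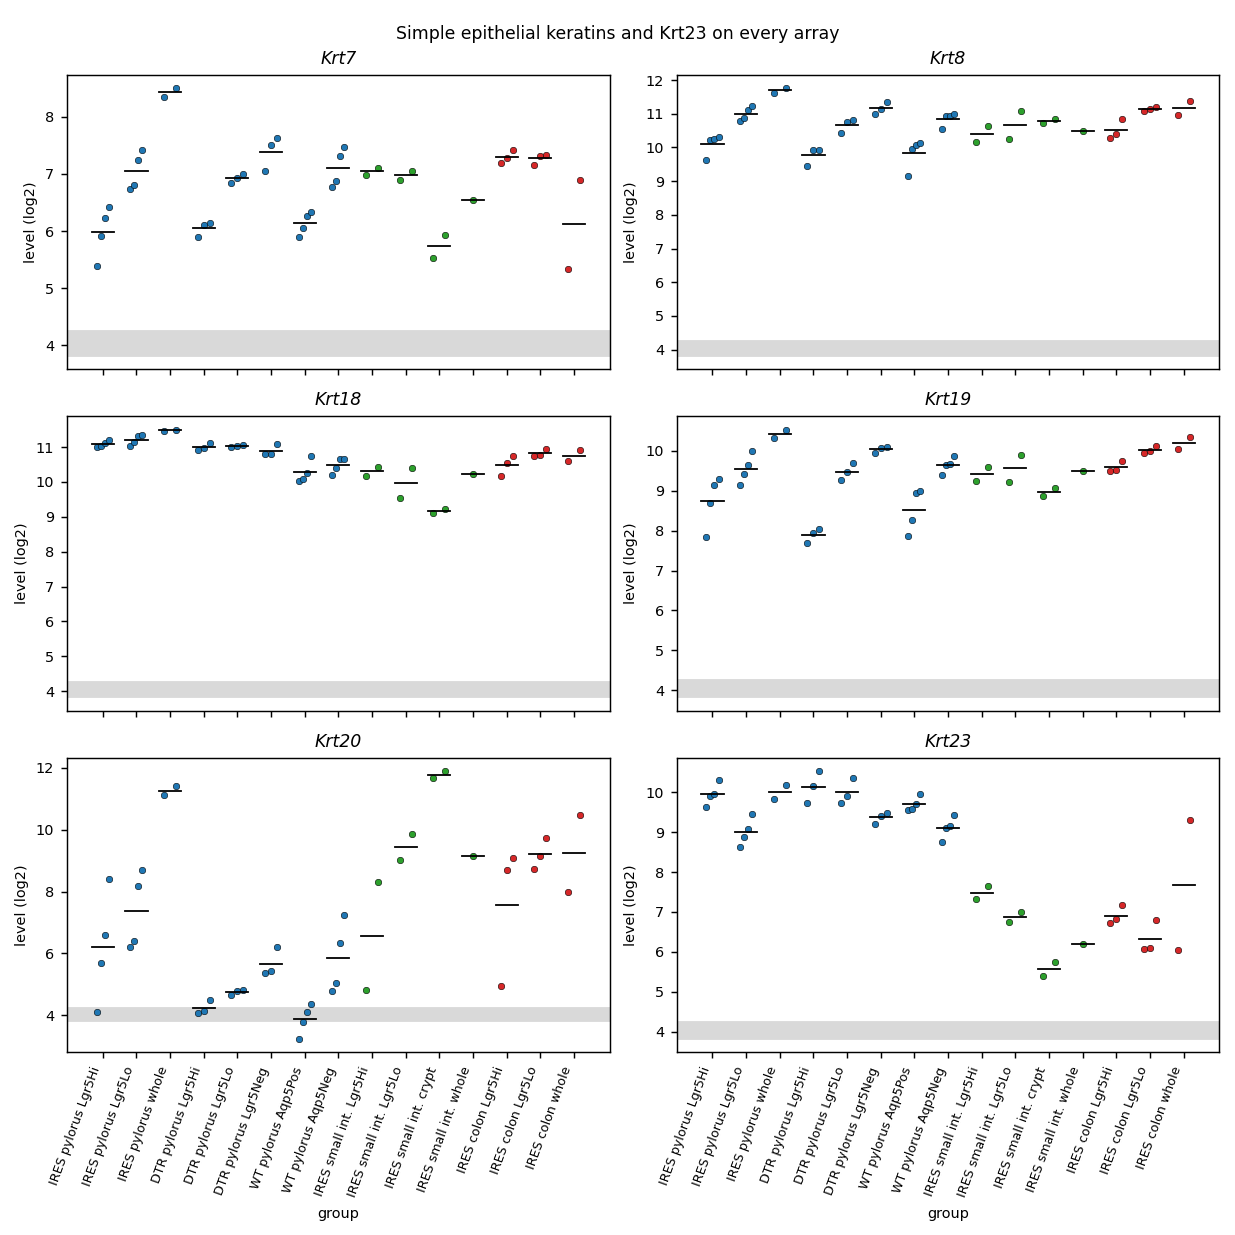
Level (log2) of Krt7, Krt8, Krt18, Krt19, Krt20 and Krt23 on each of the 42 arrays, by group; blue is pylorus, green small intestine and red colon, the black line is the group mean, and the grey band is the range of the array medians (3.82 to 4.25). Krt20 spans from the band in WT Aqp5Pos cells to 11.77 in the crypt-labelled arrays, and Krt23 is higher in pylorus than elsewhere except for the whole colon array at 9.31.

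The DTR line asks what distinguishes the brightest Lgr5 cells of the pylorus from unlabelled cells. The simple keratins Krt7, Krt8, Krt19 and Krt20 were lower in Lgr5Hi than in Lgr5Neg cells, Krt18 differed little, and Krt23, an acidic keratin known from glandular epithelium, was higher. A difference was called when its adjusted p was under 0.05 in limma with Benjamini-Hochberg adjustment over all 22180 genes. By this rule 9 of the 53 keratins differed, 8 lower and 1 higher, against 18.3% of all genes in either direction, 9.48% lower and 8.84% higher. The median difference was -0.08 over the keratins and 0.02 over all genes.

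Krt19 had the largest fitted difference of the members; that of Krt20 below starts from a level near background. Krt19 lay at 7.69, 7.93 and 8.03 in Lgr5Hi, at 9.28, 9.46 and 9.70 in Lgr5Lo and at 10.11, 10.08 and 9.95 in Lgr5Neg cells. The 3 gates did not overlap. Lgr5Hi minus Lgr5Neg was -2.16 ± 0.15 (SE, log2; 4.47-fold lower; limma adjusted p = 1.28e-06) and Lgr5Hi minus Lgr5Lo was -1.60 ± 0.15 (adjusted p = 0.000165).

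Krt7 and Krt8, both type II keratins, were graded in the same order. Krt7 lay at 5.90, 6.14 and 6.11 in Lgr5Hi, 6.83, 6.92 and 7.01 in Lgr5Lo and 7.63, 7.05 and 7.50 in Lgr5Neg cells. Krt8 lay at 9.44, 9.94 and 9.93, then 10.42, 10.77 and 10.81, then 11.36, 11.13 and 11.00. No gate overlapped another for either gene. Between Lgr5Hi and Lgr5Neg cells the differences were -1.34 ± 0.16 for Krt7 (limma adjusted p = 9.09e-05) and -1.40 ± 0.17 for Krt8 (adjusted p = 0.000122).

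Krt20 lay at 4.50, 4.15 and 4.07 in Lgr5Hi, 4.82, 4.64 and 4.79 in Lgr5Lo and 5.38, 5.44 and 6.20 in Lgr5Neg cells, again without overlap. The Lgr5Hi minus Lgr5Neg difference was -1.43 ± 0.21 (limma adjusted p = 0.000328). The Lgr5Hi arrays sit within or near the range of the array medians, where a difference can be understated. Krt18 lay at 10.92, 10.99 and 11.10 in Lgr5Hi and 11.10, 10.79 and 10.81 in Lgr5Neg cells; the difference was 0.10 with a 95% confidence interval from -0.18 to 0.39 (adjusted p = 0.688). Krt23 lay at 9.74, 10.15 and 10.52 in Lgr5Hi and 9.21, 9.41 and 9.49 in Lgr5Neg cells, a rise of 0.77 ± 0.21 (adjusted p = 0.0197).

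The other 4 calls were lower in Lgr5Hi cells. Krt15, a keratin of basal cells, differed by -0.95 ± 0.14 (limma adjusted p = 0.000458), Krt42 by -0.69 ± 0.18 (adjusted p = 0.0172), and the suprabasal keratins Krt79 and Krt80 by -0.68 ± 0.19 each (adjusted p = 0.0243 and 0.0234). Krt15 and Krt80 lay near or below the array median in Lgr5Hi cells, at 3.49 and 3.19. The calls of Krt7, Krt8, Krt15 and Krt19 held under every setting in which they were tested and with any 1 array left out (the filter on dim probe sets left out Krt15), while 1 fit over all 42 arrays did not call Krt20, Krt23 or Krt80 (adjusted p = 0.501, 0.349 and 0.132). Leaving out 1 array ended the calls of Krt23 (Lgr5Hi 3, Lgr5Neg 1 or 2; adjusted p = 0.0821, 0.078 and 0.0519), Krt42 (Lgr5Hi 2 or Lgr5Neg 1; 0.0691 and 0.0742), Krt79 (Lgr5Hi 2, Lgr5Neg 2 or 3; 0.0826, 0.0954 and 0.0624) and Krt80 (Lgr5Hi 2 or 3, Lgr5Neg 1 or 3; 0.0673, 0.0898, 0.0947 and 0.0669).

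For Krt7, Krt8, Krt19 and Krt20 the dim gate lay between the other two. Lgr5Hi against Lgr5Lo cells gave 4 calls among the 53 keratins, against 4.97% of all genes: Krt19 (above), Krt7 (-0.87 ± 0.16, limma adjusted p = 0.00922), Krt8 (-0.90 ± 0.17, adjusted p = 0.0115) and the hair keratin Krt31 (0.75 ± 0.19, adjusted p = 0.0401), the last near or below the array medians in both gates. Lgr5Lo against Lgr5Neg cells gave 2 calls, against 2.2% of all genes: Krt20 (-0.92 ± 0.21, adjusted p = 0.034) and Krt15 (-0.66 ± 0.14, adjusted p = 0.0291). In the latter comparison Krt19 differed by -0.56 ± 0.15 (adjusted p = 0.0786), Krt7 by -0.47 ± 0.16 (0.194) and Krt8 by -0.50 ± 0.17 (0.206), none past the threshold. These 3 comparisons share arrays and are not independent. Krt19 against Lgr5Lo held with any 1 array left out, whereas Krt7 was lost without Lgr5Lo 3 (adjusted p = 0.0536) and Krt8 without Lgr5Lo 2 or 3 (0.0553 and 0.0675). The fit over all 42 arrays called neither Krt7 (0.157), Krt8 (0.0671) nor Krt31 (0.312), and neither Krt15 nor Krt20 between Lgr5Lo and Lgr5Neg cells. Krt31 was lost without Lgr5Hi 1 or 3 or any Lgr5Lo array (0.067 to 0.188), and both Lgr5Lo against Lgr5Neg calls without most single arrays: Krt20 without Lgr5Lo 1, 2 or 3 or Lgr5Neg 2 or 3 (0.0537 to 0.125) and Krt15 without Lgr5Lo 1 or 2 or any Lgr5Neg array (0.0538 to 0.136).

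Other cell markers moved with these gates. The mean over 5 genes of surface pit cells, all of them above the array median in each gate, was 7.34 to 8.21 on the Lgr5Hi, 10.81 to 11.24 on the Lgr5Lo and 11.74 to 12.00 on the Lgr5Neg arrays, and 5 of 5 were called lower in Lgr5Hi than in Lgr5Neg cells. The mean over 7 genes of dividing cells was 6.21 to 7.05, 7.88 to 8.15 and 8.07 to 8.49, with 7 of 7 called lower in Lgr5Hi than in Lgr5Neg cells. The mean over 12 tuft cell genes was 6.41 to 7.36, 5.10 to 5.91 and 5.47 to 6.20, with 7 called higher. Genes of gland mucous cells rose toward Lgr5Hi, with 3 of 4 called. Between Lgr5Hi and Lgr5Neg cells 9.48% of all genes were called lower and 8.84% higher. The part of these markers in the keratin differences was not tested.

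In the IRES pylorus the comparison is bright against dim cells, and 3 of 53 keratins were called, against 1.59% of all genes. Krt7 and Krt8 were lower and Krt23 was higher in Lgr5Hi cells. The median difference was -0.06 over the keratins and -0.04 over all genes.

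Krt7 lay at 5.91, 5.39, 6.43 and 6.23 in Lgr5Hi and at 7.42, 6.73, 6.80 and 7.24 in Lgr5Lo cells, a difference of -1.06 ± 0.22 (limma adjusted p = 0.0166). Krt8 lay at 10.22, 9.63, 10.31 and 10.26 against 11.22, 10.87, 10.80 and 11.10, a difference of -0.89 ± 0.22 (adjusted p = 0.0461). Krt23 lay at 9.64, 9.95, 9.89 and 10.30 against 8.87, 9.07, 8.64 and 9.45, a rise of 0.94 ± 0.22 (adjusted p = 0.0371). For each of these genes the 2 gates did not overlap.

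Krt19 lay at 8.69, 7.83, 9.14 and 9.30 in Lgr5Hi and 9.14, 9.43, 9.64 and 9.99 in Lgr5Lo cells, and the gates overlapped. Its difference of -0.81 ± 0.27 did not pass the test (limma adjusted p = 0.158), but equally numbered arrays of this tissue deviated together, and with the replicate number as a block it did (-0.81 ± 0.20, adjusted p = 0.0463). Krt20 was lower in Lgr5Hi in all 4 equally numbered pairs, and its mean difference was -1.18 ± 0.91. Krt18 differed by -0.12, with a 95% confidence interval from -0.54 to 0.29.

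These calls rest on few arrays. Without the 3 pyloric arrays that carry Defa24, and the 2 colonic ones of the same fit, the differences kept their direction, at -1.20 for Krt7, -0.95 for Krt8 and 1.07 for Krt23, and none was called (limma adjusted p = 0.107, 0.204 and 0.116). Leaving out 1 array ended the call of Krt7 without Lgr5Hi 2 (0.0628), of Krt8 without Lgr5Hi 1, 2 or 4 or Lgr5Lo 1, 2 or 4 (0.0625 to 0.159) and of Krt23 without Lgr5Hi 2 or 4 or Lgr5Lo 1, 2 or 3 (0.0589 to 0.125). Without Lgr5Hi 3, which had low Sox2, the differences were -1.20 for Krt7, -0.96 for Krt8 and 0.96 for Krt23, and all 3 were called (0.00609, 0.041 and 0.0458). Over all settings the adjusted p ran from 0.0061 to 0.107 for Krt7, from 0.0102 to 0.204 for Krt8 and from 0.011 to 0.308 for Krt23. In these gates 0 of 5 pit cell genes were called, with list means of 10.47 to 12.02 on the Lgr5Hi and 12.12 to 12.43 on the Lgr5Lo arrays. Of 7 dividing cell genes 3 were called lower in Lgr5Hi cells, with list means of 6.42 to 6.83 and 7.36 to 8.01. Of all genes 1.59% were called in either direction. The tuft cell gene Dclk1 lay at 8.66, 6.78, 4.68 and 6.15 in Lgr5Hi and at 8.29, 8.59, 7.15 and 8.40 in Lgr5Lo cells. In the DTR gates Dclk1 lay at 8.65, 7.62 and 8.40 against 6.88, 6.26 and 5.41. Muc6, a gland mucous cell gene, lay at 12.04, 12.44, 11.66 and 12.44 in IRES Lgr5Hi and 11.03, 11.41, 10.45 and 11.68 in Lgr5Lo cells. The part of these markers in the keratin differences was not tested.

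Sorting wildtype pylorus on surface Aqp5 uses no reporter. Of 53 keratins 4 were lower in Aqp5Pos cells and 0 higher, against 2.8% of all genes in either direction and 2.25% lower: the simple keratins Krt7, Krt8, Krt19 and Krt20. The median difference was 0.21 over the keratins and 0.06 over all genes. Because 38 of the 53 keratins lay near or below the array median in every group, the keratin median is mostly one of genes near background.

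Krt7 lay at 5.89, 6.26, 6.06 and 6.33 in Aqp5Pos and 6.88, 7.31, 6.77 and 7.47 in Aqp5Neg cells, a difference of -0.97 ± 0.20 (limma adjusted p = 0.026). Krt8 lay at 9.16, 10.15, 10.08 and 9.97 against 10.55, 10.95, 10.93 and 10.98, a difference of -1.01 ± 0.23 (adjusted p = 0.0374). Krt19 lay at 7.86, 8.95, 8.99 and 8.28 against 9.65, 9.40, 9.67 and 9.87, a difference of -1.12 ± 0.25 (adjusted p = 0.0349). In each case all 4 Aqp5Pos arrays were below all 4 Aqp5Neg arrays.

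Krt20 lay at 4.10, 3.23, 4.36 and 3.78 in Aqp5Pos cells, around the array median, and at 5.04, 6.34, 4.78 and 7.24 in Aqp5Neg cells. The gates did not overlap, and the difference was -1.98 ± 0.46 (limma adjusted p = 0.0414). Krt23 lay at 9.58, 9.95, 9.70 and 9.56 against 9.15, 9.11, 8.76 and 9.44; all 4 Aqp5Pos arrays were higher, by 0.59 ± 0.19, and the difference did not pass the test (adjusted p = 0.118). Krt18 differed by -0.20, with a 95% confidence interval from -0.64 to 0.24.

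Leaving out 1 array ended the call of Krt7 without Aqp5Pos 1 or Aqp5Neg 2 or 4 (limma adjusted p = 0.0542 to 0.0981), of Krt8 without any Aqp5Neg array (0.0589 to 0.127), of Krt19 without Aqp5Pos 1 or 4 or any Aqp5Neg array (0.0557 to 0.127) and of Krt20 without Aqp5Pos 1, 2 or 4 or Aqp5Neg 1, 2 or 4 (0.0508 to 0.126). Quantile normalization called Krt7 but not Krt8, Krt19 or Krt20 (0.073, 0.0583 and 0.0573). The list mean of the pit cell genes was 10.02 to 11.00 on the Aqp5Pos and 12.00 to 12.11 on the Aqp5Neg arrays, with 5 of 5 called lower, and 7 of 12 tuft cell genes were called lower, with list means of 4.41 to 4.71 and 5.58 to 5.94. The dividing cell list had means of 7.08 to 7.50 and 7.87 to 8.12, with 2 of 7 genes called lower, and the gland mucous cell list 10.87 to 11.17 and 9.69 to 9.99, with 3 of 4 called higher. Of all genes 2.8% were called in either direction and 2.25% lower. The part of these markers was not tested.

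**Figure D3:**
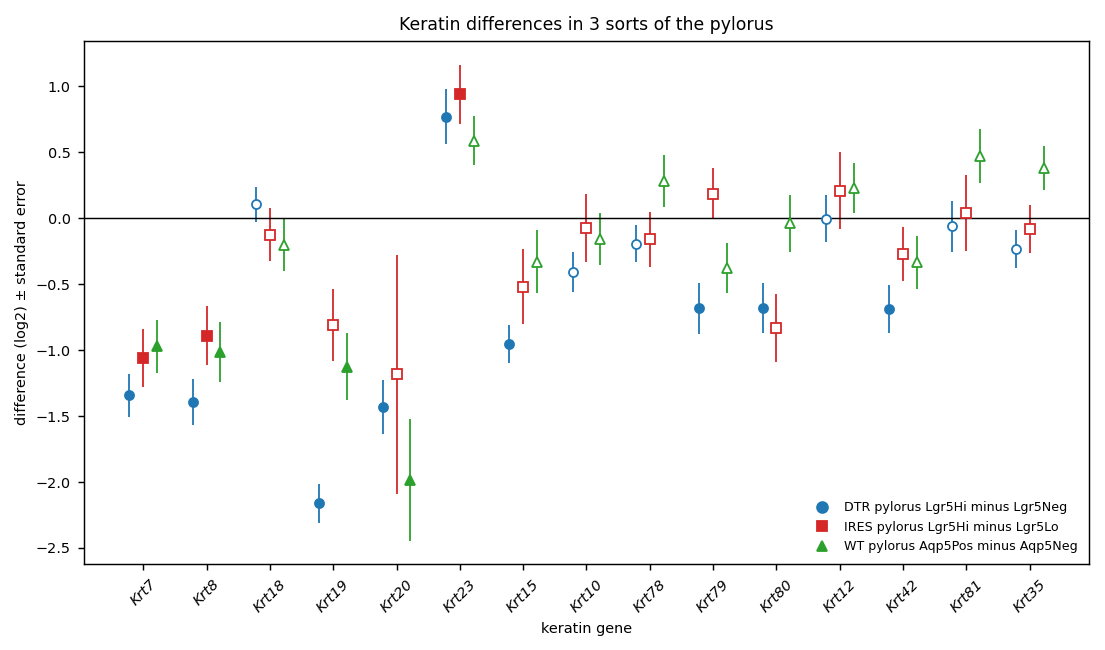
Difference (log2, points) with its standard error (bars) for the 15 keratins above the array median in 3 sorts of the pylorus: DTR Lgr5Hi minus Lgr5Neg, IRES Lgr5Hi minus Lgr5Lo and WT Aqp5Pos minus Aqp5Neg. Filled symbols passed the test; Krt7 and Krt8 lie below 0 in each sort, Krt18 stays near 0 and Krt23 lies above 0, with an open symbol in WT.

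In sorted IRES cells Krt23 separated pylorus from the other organs, with the 3 largest differences among the keratins called between organs. All 8 pyloric Lgr5Hi and Lgr5Lo arrays of the IRES line lay at 8.64 or above. Small intestinal arrays lay at 7.64 and 7.33 (Lgr5Hi) and 6.74 and 6.99 (Lgr5Lo), and colonic arrays at 6.72, 6.83 and 7.16 (Lgr5Hi) and 6.07, 6.10 and 6.80 (Lgr5Lo). No sorted pyloric array overlapped a sorted intestinal or colonic one.

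Between Lgr5Hi cells, pylorus exceeded small intestine by 2.46 ± 0.27 (limma adjusted p = 2.5e-06) and colon by 3.04 ± 0.24 (8.23-fold; adjusted p = 2.48e-08). Between Lgr5Lo cells it exceeded small intestine by 2.14 ± 0.27 (adjusted p = 1.49e-05) and colon by 2.68 ± 0.24 (adjusted p = 1.45e-07). These 4 calls held under every setting run and with any 1 array left out. Small intestine and colon did not differ past the threshold, by 0.58 ± 0.29 in Lgr5Hi (adjusted p = 0.453) and 0.54 ± 0.29 in Lgr5Lo cells (adjusted p = 0.439).

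The first of these comparisons, Lgr5Hi cells of pylorus and small intestine, called 6 of 53 keratins, against 12.1% of all genes. Besides Krt23, Krt79 was higher in pylorus (4.67, 4.88, 5.16 and 5.22 against 3.40 and 3.83; 1.37 ± 0.24, limma adjusted p = 0.000435), and so was Krt18 (0.77 ± 0.24, adjusted p = 0.042). Krt15 was lower in pylorus, with 3.04, 3.78, 4.05 and 4.18 against 6.58 and 5.27 (-2.16 ± 0.35, adjusted p = 0.000233). Krt15 in small intestinal Lgr5Hi cells was the highest group mean of that gene, 5.92 ± 0.93 (SD, n = 2), and the only sorted group in which it lay 1 or more above the array median. Krt7 (-1.06 ± 0.27, adjusted p = 0.0119) and the suprabasal keratin Krt10 (-0.997 ± 0.32, adjusted p = 0.0453) were also lower in pylorus. Krt23, Krt79 and Krt15 kept their calls with any 1 array left out. Krt7 lost its call without either small intestinal array (0.0844 and 0.116), and Krt10 and Krt18 without any 1 of the 6 arrays (0.0531 to 0.39 and 0.0549 to 0.342). Without the arrays that carry Defa24, neither Krt10 nor Krt18 was called (0.0601 and 0.161), and quantile normalization called neither (0.0967 and 0.051).

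In Lgr5Lo cells the same organs gave 5 calls, against 8.02% of all genes. Krt18 was higher in pylorus by 1.23 ± 0.24 (limma adjusted p = 0.00192), Krt79 by 1.05 ± 0.24 (adjusted p = 0.00617) and Krt80 by 1.10 ± 0.31 (adjusted p = 0.0339), beside Krt23, and Krt10 was lower (-1.15 ± 0.32, adjusted p = 0.0274). Without small intestinal Lgr5Lo 1 the difference of Krt18 fell to 0.80 (adjusted p = 0.154) and Krt10 was not called (0.411). Without the arrays that carry Defa24, Krt10 stood at -0.75 and Krt80 at 0.73, neither called (0.184 and 0.232). Krt10 was also lost without pyloric Lgr5Lo 2 (0.0688), Krt79 without small intestinal Lgr5Lo 2 (0.0849) and Krt80 without pyloric Lgr5Lo 2 or 4 or either small intestinal array (0.0704 to 0.184).

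Pylorus against colon gave 3 calls in Lgr5Hi cells, against 7.26% of all genes, and 2 in Lgr5Lo cells, against 6.5%. Krt7 was lower in pyloric than in colonic Lgr5Hi cells, which lay at 7.28, 7.20 and 7.42 (-1.31 ± 0.24, limma adjusted p = 0.000839). In Lgr5Lo cells, which lay at 7.32, 7.16 and 7.34 in the colon, Krt7 did not differ past the threshold (-0.22 ± 0.24, adjusted p = 0.663). The hair keratin Krt83 was lower in pyloric Lgr5Hi cells (3.31 to 3.71 against 5.08, 4.77 and 4.59; -1.31 ± 0.28, adjusted p = 0.00428), and Krt87 in pyloric Lgr5Lo cells (-1.15 ± 0.34, adjusted p = 0.0487). Krt7 and Krt83 kept their calls with any 1 array left out, and Krt87 lost its call without Lgr5Lo 1, 2 or 4 of the pylorus or any Lgr5Lo array of the colon (0.0733 to 0.205). Without the arrays that carry Defa24, Krt87 stood at -0.86 (adjusted p = 0.35).

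Small intestine against colon gave 2 calls in Lgr5Hi cells, against 2.89% of all genes, and 1 in Lgr5Lo cells, against 4.68%. Krt15 was higher in small intestinal Lgr5Hi cells by 1.77 ± 0.37 (limma adjusted p = 0.00707), a difference that rests on small intestinal Lgr5Hi 1, without which it was 1.12 (adjusted p = 0.402). Without the arrays that carry Defa24 it was 1.62 (adjusted p = 0.0813). Krt83 was lower, at 3.37 and 3.09 against 5.08, 4.77 and 4.59 (-1.58 ± 0.34, adjusted p = 0.00806), and was lost without Lgr5Hi 1 or 2 of the small intestine (0.0533 and 0.125). In Lgr5Lo cells Krt87 was lower in small intestine (-1.44 ± 0.41, adjusted p = 0.0474); without small intestinal Lgr5Lo 1 the difference was -0.70 (adjusted p = 0.866) and without Lgr5Lo 2 it was -2.19 (adjusted p = 0.00714), and it was not called without any 1 colonic array (0.0632 to 0.168) or without the arrays that carry Defa24 (-1.42, adjusted p = 0.212). Krt83 and Krt87 lay less than 1 log2 unit above the array median in every group. The 6 comparisons between organs share arrays.

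Within small intestine and within colon, bright and dim cells gave no keratin call. In the small intestine 0 of 53 keratins passed the test, against 0.144% of all genes, and 2 keratins and 1027 genes had an unadjusted p under 0.05 in limma. In the colon 0 of 53 passed, against 0% of all genes, and 4 keratins and 993 genes had an unadjusted p under 0.05. Colonic Krt8 lay at 10.27, 10.84 and 10.41 in Lgr5Hi and 11.08, 11.19 and 11.13 in Lgr5Lo cells without overlap, a difference of -0.63 with a 95% confidence interval from -1.16 to -0.09 (adjusted p = 1). The replicate block called 0 in either organ as well.

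Whether the bright-minus-dim change itself differed between organs was tested as a difference of differences. None of the 53 keratins passed in any of the 3 contrasts, against 0.293% of all genes for pylorus against colon, 0.0316% for pylorus against small intestine and 0.0135% for small intestine against colon. In each contrast 3 of the 53 keratins had an unadjusted p under 0.05 in limma. Of all genes 8.13%, 7.25% and 2.26% did, in the same order of contrasts. The change of Krt7 was -1.06 in pylorus, 0.03 in colon and 0.07 in small intestine. The difference was -1.09 ± 0.33 against colon, with a 95% confidence interval from -1.79 to -0.39 (adjusted p = 0.238), and -1.13 ± 0.38 against small intestine, with an interval from -1.92 to -0.34 (adjusted p = 0.4). The loss of Krt7 toward bright cells is therefore not shown to be particular to the pylorus after adjustment.

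Whole pyloric glands carried keratins that the sorted cells held at lower levels. Against whole glands, IRES Lgr5Hi cells gave 7 calls among the 53 keratins, all lower, against 3.66% of all genes in either direction and 2.83% lower. Krt20 differed by -5.07 ± 0.90 (33.6-fold; limma adjusted p = 0.00458), Krt7 by -2.44 ± 0.32 (adjusted p = 0.000674), Krt19 by -1.69 ± 0.38 (adjusted p = 0.0199) and Krt8 by -1.59 ± 0.27 (adjusted p = 0.00352).

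The other 3 are keratins of stratified epithelia. Krt78, known from the lining of the oral cavity and oesophagus, lay at 6.52 and 6.63 in whole glands and between 4.51 and 4.80 in Lgr5Hi cells (-1.94 ± 0.28, limma adjusted p = 0.00111). Krt79 lay at 6.35 and 6.57 against 4.67 to 5.22 (-1.48 ± 0.27, adjusted p = 0.00503) and Krt80 at 5.49 and 5.86 against 2.92 to 3.95 (-2.37 ± 0.35, adjusted p = 0.00152). Whole pylorus was the highest of the 15 groups for each of these genes and for Krt12, a keratin of the cornea, at 5.19 and 5.05. It was the only group in which Krt80 and Krt12 lay 1 or more above the array median.

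Lgr5Lo cells against whole glands gave 2 calls, both lower, against 1.01% of all genes in either direction and 0.906% lower: Krt78 (-1.78 ± 0.28, limma adjusted p = 0.00645) and Krt79 (-1.67 ± 0.27, adjusted p = 0.00746). Krt20 (-3.89 ± 0.90) and Krt7 (-1.38 ± 0.32) missed the threshold, with an adjusted p of 0.0588 each. With the replicate number as a block, which pairs Lgr5Hi and Lgr5Lo arrays but was not seen to pair them with whole glands, limma called Krt20 (-5.07 ± 0.43, adjusted p = 0.000191), Krt7 (-1.54 ± 0.32, adjusted p = 0.0358) and Krt12 (-1.67 ± 0.32, adjusted p = 0.0219); it also called Krt12 in Lgr5Hi cells against whole glands (-1.46 ± 0.32, adjusted p = 0.0209). Both sets of calls rest on 2 whole-gland arrays. Leaving out whole replicate 1 ended the Lgr5Hi calls of Krt19, Krt20 and Krt79 (0.146, 0.0536 and 0.0543), and leaving out whole replicate 2 those of Krt8, Krt19, Krt20, Krt79 and Krt80 (0.104, 0.293, 0.0955, 0.143 and 0.0619); Krt7 and Krt78 held. Both Lgr5Lo calls were lost without either whole array (0.0732 to 0.289), and without the arrays that carry Defa24 (0.0701 each). The mean over 9 fibroblast and smooth muscle genes was 4.74 and 5.51 in whole glands and 3.92 to 4.25 in Lgr5Hi cells, and that of the pit cell genes 12.60 and 12.66 against 10.47 to 12.02. The squamous markers other than keratins had list means of 4.45 and 4.55 in whole glands and 4.00 to 4.44 in Lgr5Hi cells, with 1 of 16 called higher in whole glands (Sprr1a, a cornified envelope precursor, by 5.26 ± 0.91), and Trp63, the factor that defines squamous basal cells, lay at 3.32 and 3.22 there, below the array medians. Of all genes 2.83% were called lower in Lgr5Hi cells than in whole glands. The part of these markers in the differences from whole glands was not tested.

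**Figure D4:**
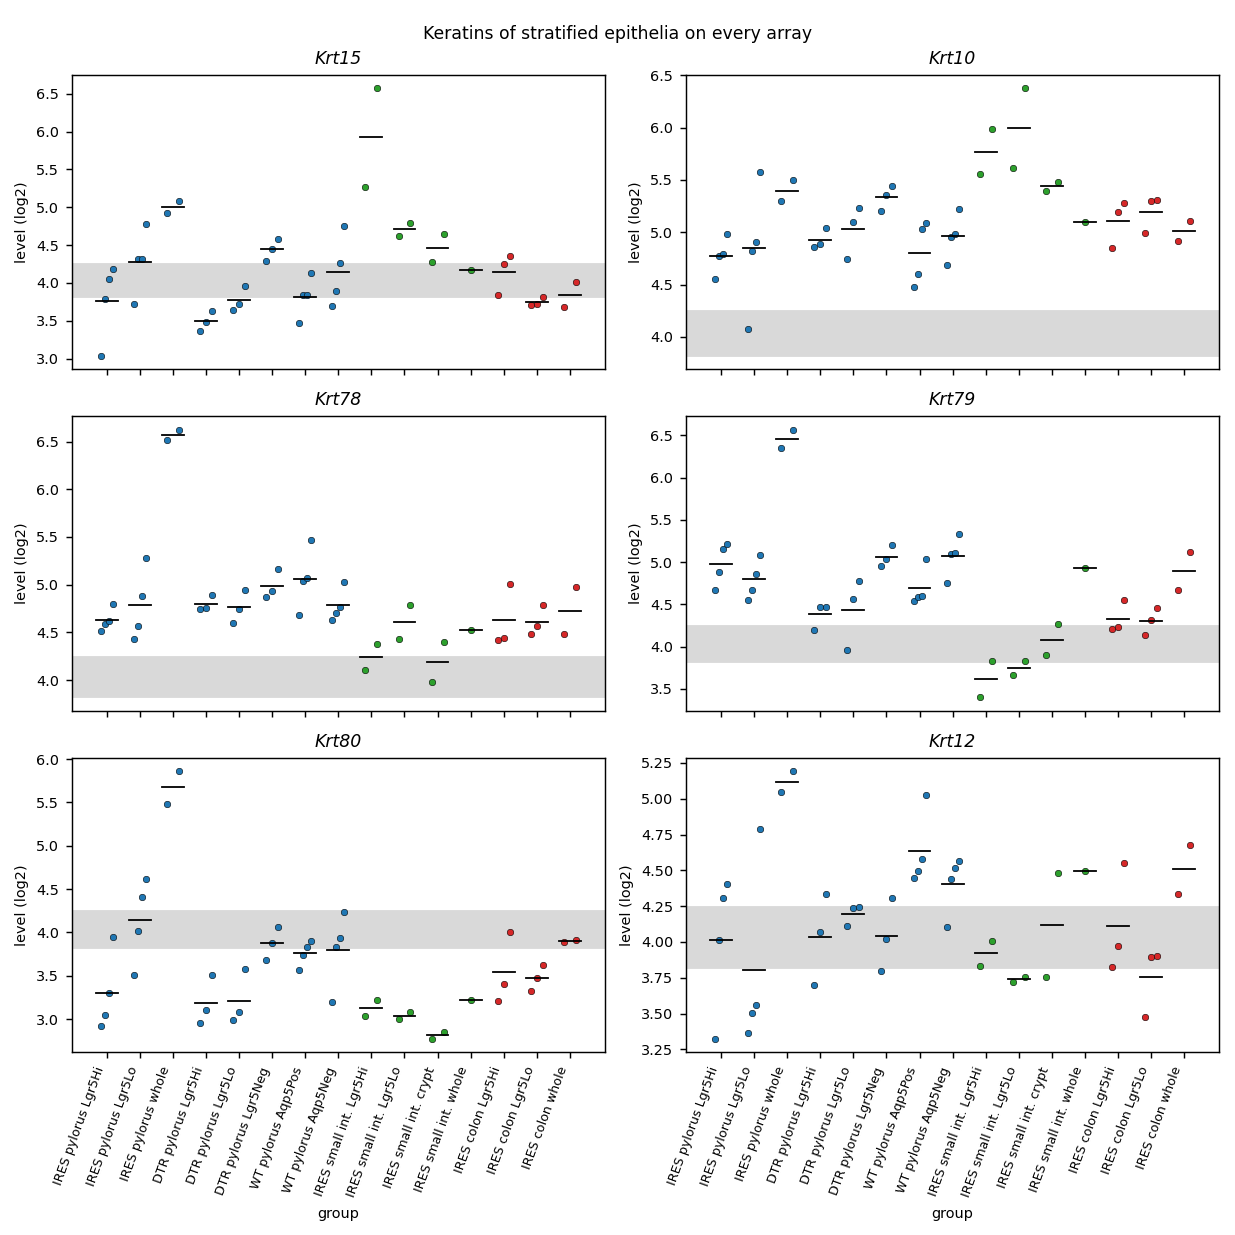
Level (log2) of Krt15, Krt10, Krt78, Krt79, Krt80 and Krt12 on each of the 42 arrays, by group, with the group mean as a black line and the range of the array medians as a grey band (blue pylorus, green small intestine, red colon). Krt78, Krt79 and Krt80 are highest on the 2 whole pylorus arrays, and Krt15 on the small intestinal Lgr5Hi arrays.

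Small intestinal Lgr5Hi cells against the crypt-labelled arrays gave 5 calls, against 17.9% of all genes. Krt20 was lower in Lgr5Hi cells (-5.22 ± 0.82, limma adjusted p = 0.00146), while Krt23 (1.90 ± 0.26, adjusted p = 0.000653), Krt7 (1.31 ± 0.25, adjusted p = 0.00434), Krt15 (1.46 ± 0.38, adjusted p = 0.0203) and Krt18 (1.14 ± 0.30, adjusted p = 0.0232) were higher. In the same comparison 9 of 9 enterocyte genes were called lower and 7 of 7 dividing cell genes higher in Lgr5Hi cells; the enterocyte list mean was 11.70 and 11.74 on the crypt-labelled arrays and 7.35 and 9.69 on the Lgr5Hi arrays. Krt20 and Krt23 kept their calls with any 1 array left out, though the size for Krt20 fell to -3.46 (adjusted p = 0.000205) without Lgr5Hi 1. Krt15 was lost without Lgr5Hi 1, where it stood at 0.81, or without either crypt array (0.173, 0.069 and 0.18), Krt7 without crypt 2 (0.0685) and Krt18 without any 1 of the 4 arrays (0.0571 to 0.159).

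Keratin filaments are anchored at desmosomes and bound by cytolinkers. Of 14 desmosome genes, 1 was called in DTR Lgr5Hi against Lgr5Neg cells, where 18.3% of all genes were called, and 1 in WT Aqp5Pos against Aqp5Neg cells, where 2.8% were, in both cases Dsc2, a desmosomal cadherin, lower in the first-named gate, with differences of -0.88 ± 0.15 (limma adjusted p = 0.00114) and -1.04 ± 0.18 (adjusted p = 0.0105). None of the 14 was called in IRES bright against dim pyloric cells. Against whole glands, where 3.66% of all genes were called, Lgr5Hi cells were lower in 2 of 14 desmosome genes, Dsc2 (-1.65 ± 0.27) and in Dsp, which encodes desmoplakin (-1.58 ± 0.30), and in 3 of 6 cytolinker genes, Dst (-1.41 ± 0.27), Evpl (-1.19 ± 0.29) and Plec (-1.17 ± 0.30). Pkp1 and Pkp2, which encode plakophilins, were the 2 of 14 called between Lgr5Hi cells of pylorus and either other organ, where 12.1% (small intestine) and 7.26% (colon) of all genes were called. They were lower in pyloric than in small intestinal Lgr5Hi cells, with differences of -1.75 ± 0.36 and -1.41 ± 0.27, and than in colonic ones, with -1.60 ± 0.32 and -1.23 ± 0.24.

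Of 15 other intermediate filament genes, 4 were called between DTR Lgr5Hi and Lgr5Neg cells, against 18.3% of all genes. The lamin genes Lmnb1 (-1.41 ± 0.15), Lmnb2 (-0.56 ± 0.13) and Lmna (-0.63 ± 0.16) were lower in Lgr5Hi cells and Synm, which encodes synemin, was higher (1.32 ± 0.15). Lmnb1 was also lower in IRES bright than in dim pyloric cells (-1.16 ± 0.25, limma adjusted p = 0.0203), the only one of the 15 called there, against 1.59% of all genes. In WT Aqp5Pos against Aqp5Neg cells 0 of the 15 were called.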

How the data were processed

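Affymetrix arrays measured RNA in 42 samples; the 15 groups follow the sample titles, although another label of the DTR arrays names the other line. Values are the deposited log2 intensities (array medians 3.82 to 4.25); the submitters' processing notes name RMA, oligo, Partek, R 3.2.3 and limma 3.26.8 without roles. Levels near the array medians carry background, so differences there can be understated or reflect noise. Each of the 22180 genes was read from its probe set with the highest mean among those naming a single gene.

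Differences were fitted with limma 3.58.1 (R 4.3.3; lmFit, eBayes) in separate fits for DTR, WT, sorted IRES, IRES pylorus and IRES small intestine arrays, with Benjamini-Hochberg adjustment over all genes. On simulated data, 98 of 100 changes of 2 log2 units and 59 of 100 of 1 were recovered for DTR Lgr5Hi against Lgr5Neg, 81 and 11 for small intestinal Lgr5Hi against Lgr5Lo, and 52 and 0 for small intestinal Lgr5Hi against crypt. Only these 100 genes of each size were changed among the 22180, whereas the real crypt comparison called 17.9% of all genes. Recovery after adjustment depends on the share of changed genes, so these counts hold for the simulated share alone. False calls made up from 0% (small intestinal Lgr5Hi against crypt) to 8.43% (difference of differences between pylorus and colon) of the simulated calls, with 7.01% in the WT sort. Each comparison was simulated on a single data set, so these shares cannot show a rate above the nominal 5%.

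Named were the simple keratins, keratins above the array median, called keratins and up to 4 called genes per linked list. Members and lists were chosen with earlier results of these data known. Equally numbered Lgr5Hi and Lgr5Lo arrays deviated together in IRES pylorus (correlations 0.16, 0.10, 0.27 and 0.30) and colon (0.18, 0.14 and 0.24). In small intestine, with 2 arrays per group, the correlation was 0.37. This pairing entered only the replicate block, and the main fits had no block. Alternatives were other arrays in the fit, trend and robust settings, quantile normalization, mean probe sets, a filter on dim probe sets, the replicate block and leaving out each array; leaving out arrays by Defa24, or whole colon replicate 1, was chosen after seeing the data.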

Additional observations from a re-analysis of the deposited data

Results flagged for a closer look

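Of 60 sets of 4 arrays examined (each keratin above the array median in each group of 4), 4 held an array set far apart from the other 3, and chance gives about 1 in 20. IRES pyloric Lgr5Hi 2 had Krt8 at 9.63, with the others between 10.22 and 10.31. WT Aqp5Neg 1 had Krt8 at 10.55, with the others between 10.93 and 10.98. WT Aqp5Pos 3 had Krt79 at 5.04, with the others between 4.54 and 4.60. IRES pyloric Lgr5Lo 3 had Krt12 at 4.79, with the others between 3.36 and 3.56. Leaving out IRES pyloric Lgr5Hi 2 or WT Aqp5Neg 1 ended the call of Krt8 in its comparison.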

How the results depend on the processing

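Of 55 keratin calls, 17 held under every setting in which they were tested and 31 under every setting other than leaving out arrays; 0 changed direction, 571 recomputed values kept their side of the threshold and 159 lost it. Counts of called keratins moved by over 1.5 times as follows; the cause was not tested. One fit over all 42 arrays gave 1 in DTR Lgr5Hi against Lgr5Lo, 0 in DTR Lgr5Lo against Lgr5Neg, 6 in Lgr5Hi pylorus against colon, 2 in Lgr5Lo small intestine against colon and 6 in pyloric Lgr5Lo against whole. In these comparisons but the last, that fit called 132, 24, 2282 and 1523 of all 22180 genes, against 1102, 488, 1611 and 1038 in the main fits. Leaving out the Defa24 arrays gave 0 in IRES pylorus Lgr5Hi against Lgr5Lo, 1 in Lgr5Hi small intestine against colon, 3 in Lgr5Lo pylorus against small intestine, 1 in Lgr5Lo pylorus against colon, 0 in Lgr5Lo small intestine against colon and 0 in pyloric Lgr5Lo against whole. Over all genes these comparisons but the last then gave 74, 336, 1566, 980 and 642 calls, against 353, 641, 1778, 1441 and 1038 in the main fits. The filter on dim probe sets gave 1, 3, 1 and 5 in Lgr5Hi small intestine against colon, Lgr5Lo pylorus against small intestine, Lgr5Lo pylorus against colon and pyloric Lgr5Lo against whole. Quantile normalization gave 3 in Lgr5Lo pylorus against small intestine, 1 in Lgr5Lo pylorus against colon, 0 in Lgr5Lo small intestine against colon and 2 in the WT sort. All 25 IRES arrays, with or without whole colon replicate 1, gave 1 in Lgr5Lo pylorus against colon. Trend and robust settings, and mean probe sets, gave 2 each in Lgr5Lo small intestine against colon. The replicate block gave 0 there, 2 in the WT sort and 5 in pyloric Lgr5Lo against whole, in each of which the numbers were not taken to pair the groups compared. Between Lgr5Hi and Lgr5Lo cells of one organ the block changed the call of Krt19 in IRES pylorus alone. Between organs the numbers were not seen to pair arrays. Correlations of equally numbered Lgr5Hi arrays were -0.03, -0.03 and -0.22 for pylorus and colon and 0.01 and 0.09 for pylorus and small intestine. Between organs the block called Krt19 in Lgr5Hi pylorus against colon (-1.01, limma adjusted p = 0.0258, 0.0951 without the block). It lost Krt18 in Lgr5Hi (0.0822) and Krt80 in Lgr5Lo cells (0.0872) of pylorus against small intestine and Krt87 in Lgr5Lo cells of small intestine against colon (0.0502). In the WT sort it lost Krt19 (0.0528) and Krt20 (0.0581). A margin of 0.5 put 25 keratins above the array median.

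Leaving out 1 array lowered the DTR calls over all 22180 genes. Lgr5Hi against Lgr5Neg gave 3001 to 3754 (4062 with all arrays), Lgr5Hi against Lgr5Lo 325 to 1036 (1102) and Lgr5Lo against Lgr5Neg 181 to 367 (488). Among the keratins, leaving out 1 array gave 6 to 11 calls in DTR Lgr5Hi against Lgr5Neg, 1 to 4 in Lgr5Hi against Lgr5Lo and 0 to 1 in Lgr5Lo against Lgr5Neg. It gave 0 to 4 in IRES pylorus Lgr5Hi against Lgr5Lo, 0 in small intestine and colon, 3 to 4 in Lgr5Hi pylorus against small intestine, 3 to 4 against colon and 0 to 2 in small intestine against colon. In Lgr5Lo cells the same organs gave 2 to 5, 1 to 2 and 0 to 2, and the 3 differences of differences gave 0. The WT sort gave 0 to 4, Lgr5Hi against whole pylorus 2 to 8, Lgr5Lo against whole pylorus 0 to 4 and Lgr5Hi against crypt 2 to 4. In groups of 2, the array left is assumed to vary like the other groups. Small numbers of arrays limit the precision throughout.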

Other observations

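The array labelled whole colon replicate 1 had Krt23 at 9.31, Krt7 at 5.34 and Krt20 at 7.98, against 6.04, 6.89 and 10.48 in whole colon replicate 2. Whole pylorus had Krt23 at 9.82 and 10.18, Krt7 at 8.35 and 8.51 and Krt20 at 11.11 and 11.42. Of the keratins of stratified epithelium that were high in whole pylorus, Krt78 and Krt79 were lower on both whole colon arrays. Krt78 lay there at 4.98 and 4.48 and Krt79 at 5.13 and 4.67, with array medians of 4.03 and 3.96. In whole pylorus the means of Krt78 and Krt79 were 6.57 and 6.46.

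Krt8 minus Krt18 on each array differed between the pyloric gates. The pattern was chosen after its values were seen and is given as a description. Only its change between gates can be read, since the genes have different probes. It was -1.24 ± 0.22 (SD, n = 3) in DTR Lgr5Hi and 0.27 ± 0.07 (n = 3) in Lgr5Neg cells, -0.97 ± 0.28 (n = 4) in IRES Lgr5Hi and -0.21 ± 0.07 (n = 4) in Lgr5Lo cells, and -0.44 ± 0.78 (n = 4) in WT Aqp5Pos and 0.37 ± 0.15 (n = 4) in Aqp5Neg cells. With the other Krt18 probe set the differences between the gates were -1.71, -0.67 and -0.85, and in the last the gates overlapped.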
